A study of Mus musculus with 6 samples.

Results

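Left ventricles of mice infused with angiotensin II (AngII) for 4 h were compared with those of Sham mice across the transcriptome. The members were 4 of the 6 libraries of an RNA immunoprecipitation sequencing (RIP-seq) experiment, chosen by group: AngII 4 h IgG and AngII 4 h anti-EZH2 against Sham IgG and Sham anti-EZH2. Of 46072 genes in the expression tables, the 8668 with an FPKM (fragments per kilobase of transcript, scaled to library size) above 1 in at least 2 of these 4 libraries were entered. In the experiment, RNA was precipitated from ventricle lysates with normal IgG or with an antibody against EZH2, the histone methyltransferase of Polycomb repressive complex 2. All mice were males aged 10 weeks, and their strain was labelled C57BL/6 in 3 of these libraries and C57BL/7 in the AngII 4 h anti-EZH2 library. AngII was delivered by a subcutaneous osmotic minipump, at 1 mg/kg/min according to the labels, and the Sham libraries were labelled untreated although the protocol gives Sham mice saline. Each group had 2 mice, 2 RIP products were mixed into each library, and there was 1 library for each group and antibody. The antibodies were therefore 2 measurements of the same hearts, and no p-value could be given. All 4 libraries hold RNA that came through an immunoprecipitation, and no unprecipitated RNA was used here.

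AngII is the effector peptide of the renin-angiotensin system. It acts mainly through the AT1 receptor, a Gq-coupled receptor of vascular smooth muscle, adrenal cortex, fibroblasts and cardiomyocytes, and raises blood pressure and aldosterone secretion. Over days it leads to cardiomyocyte hypertrophy and interstitial fibrosis, and early responses of the heart to it are known to include immediate early genes and cytokines. Glucocorticoids, which the adrenal cortex releases under stress, act through a nuclear receptor that heart muscle also carries.

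The tissue label fitted ventricular muscle. The ventricular myosin light chain Myl2 had 3045 and 3934 FPKM with IgG and 2122 and 3181 with anti-EZH2 (Sham before AngII 4 h here and below), and cardiac troponin I (Tnni3) had 937 and 1433, then 861 and 1388. Genes that mark neutrophils, lymphocytes and mesothelium were below the filter, with 0 of 7, 0 of 7 and 0 of 5 genes entered. Of 9 skeletal muscle genes 2 were entered, Ckm, which heart muscle also expresses, and the light chain Myl1, with 12.6 and 14.8, then 5.55 and 7.89.

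Sequencing was shallow. Depth was read from the steps between low FPKM values of genes with 1 transcript, which gave depths of about 4.32 M (mega) fragments for Sham IgG, 5.25 M for AngII 4 h IgG, 5.69 M for Sham anti-EZH2 and 7.99 M for AngII 4 h anti-EZH2. At these depths 1 FPKM in a transcript of 2000 nt stands for about 7.77, 9.45, 10.2 and 14.4 fragments, in the same order. The Sham library was the shallower of each pair, and a gene without a value there is described here only as listed at 0.

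For each gene the log2 ratio of AngII 4 h to Sham was taken on FPKM + 1 within each antibody and set relative to the median gene, which lay at 0.15 in IgG and 0.26 in anti-EZH2 before it was subtracted. Adding 1 pulls the ratios of genes with low FPKM toward 0. A gene was counted as higher or lower when it was at least 2-fold apart in the same direction in both antibodies. By this rule 135 genes were higher (1.56% of those entered) and 229 lower (2.64%), while 165 (1.90%) passed 2-fold in opposite directions. Which direction holds the larger number depends on the scaling: without subtraction of the median 221 genes were higher and 158 lower, so that 58.3% of the called genes were higher in place of 37.1%.

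The 2 antibodies differed within the same hearts about as much as the groups did. Between anti-EZH2 and IgG, 1570 genes (18.1%) were at least 2-fold apart within Sham and 1186 (13.7%) within AngII 4 h. Between AngII 4 h and Sham there were 1552 (17.9%) in IgG and 1392 (16.1%) in anti-EZH2. The antibodies are not repeats of the same measurement, because the paper used anti-EZH2 to find RNA associated with EZH2. Differences between them can hold such enrichment as well as noise. Ratios within anti-EZH2 can hold binding to EZH2 as well as abundance, and these parts were not separated. Across the 8668 genes, which are not independent of each other, the log2 ratios of the antibodies had a Pearson r of 0.11. Across 2231 genes of at least 300 nt with a mean FPKM above 5 it was 0.13, and across the 1750 genes of any length above 5 FPKM in all 4 libraries, which include short RNAs, 0.36. Among protein-coding genes it was 0.27 for the 1237 above 5 FPKM in all 4 libraries and 0.38 for the 663 above 10 FPKM.

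Short RNAs took a large part of the calls. Of 722 genes with no transcript of 300 nt or more, 51 were higher and 120 lower, against 82 and 108 of 7908 longer genes. Of 2231 genes of at least 300 nt with a mean FPKM above 5, 27 were higher, 21 lower and 23 opposite. Beside the tables of single libraries, which are used here, there is an FPKM table of the whole series. Among genes of at least 300 nt, 16 were higher, 23 lower and 19 opposite in both forms of table. Of the genes printed below whose values in both forms were compared, the order of Sham and AngII 4 h turns in the table of the whole series for Myl2, Hsp90ab1 and Suz12 with IgG, for Per1, Tsc22d3, Agtr1a and Hspa8 with anti-EZH2, and for Myh7, Dcn, Selt and Txnrd2 with both.

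**Figure D1:**
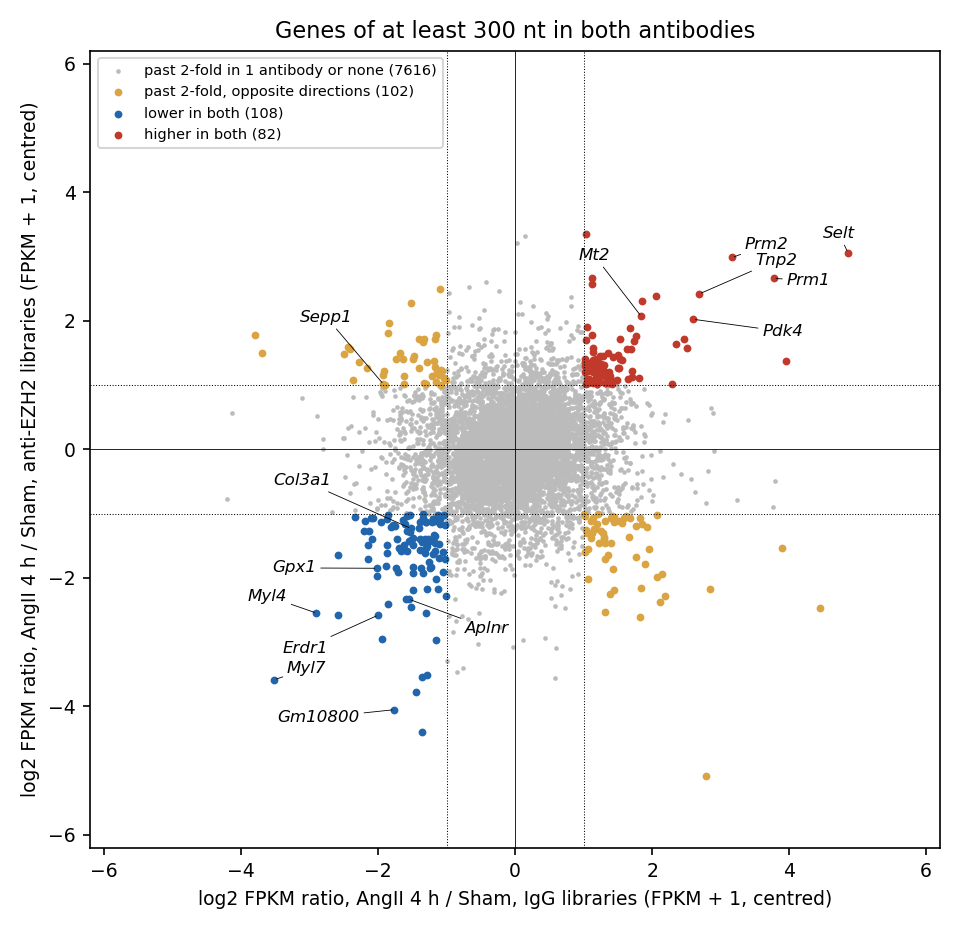
Log2 ratio of AngII 4 h to Sham in the IgG libraries (x axis) and the anti-EZH2 libraries (y axis), on FPKM + 1 and relative to the median gene, with 1 point for each of 7907 entered genes of at least 300 nt, dotted lines at 2-fold and 1 further gene outside the axes. Of the 7908 genes 82 were higher and 108 lower in both antibodies and 102 opposite, with Prm2 (3.17 and 2.98) at the upper right and Myl7 (−3.51 and −3.58) at the lower left.

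Pdk4 stood out among the higher genes for its abundance and the size of the difference. Pyruvate dehydrogenase kinase 4 inhibits the pyruvate dehydrogenase complex and so spares glucose while fatty acids are burned. It had 7.00 and 53.0 FPKM with IgG and 8.09 and 43.3 with anti-EZH2, ratios of 7.58 and 5.36 that rest on about 99 and 914 fragments with IgG and 151 and 1136 with anti-EZH2. Both AngII 4 h values lay far above both Sham values, and the intervals given for them in the tables, 47.7 to 58.5 against 4.08 to 10.1 in IgG and 37.2 to 49.5 against 3.85 to 12.4 in anti-EZH2, were apart. In the 24 h libraries, which are set against the same Sham controls, Pdk4 had 19.6 FPKM with IgG and 9.87 with anti-EZH2. The table of the whole series gave Pdk4 log2 ratios of 2.44 and 2.07, beside 2.60 and 2.02 here.

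Pdk4 belongs to a list of 20 genes that glucocorticoids are known to induce in many tissues. Of the 16 entered, 4 were higher (Pdk4, Mt2, Lcn2 and Pik3r1), 0 lower and 12 neither, and the median log2 ratio was 0.69 in IgG and 0.43 in anti-EZH2, against 0 for all entered genes by construction. In both antibodies 12 of the 16 lay above the median gene and 0 below it, where 28.3% of all entered genes lay above and 28.3% below. The most abundant gene of the list was the metallothionein Mt1. Over the 20 genes the FPKM summed to 106 in Sham IgG and 245 in AngII 4 h IgG, and to 88.0 and 232 with anti-EZH2.

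Metallothioneins bind zinc and copper and are induced both by glucocorticoids and by metals. Mt2 had 5.88 and 26.4 FPKM with IgG and 4.46 and 26.6 with anti-EZH2, while at 24 h it had 4.44 and 2.96, close to Sham. About 8 and 8 fragments stood behind the Sham values of this short transcript, against 43 and 66 at AngII 4 h. Its neighbour Mt1, with 46.5 and 82.3, then 35.3 and 86.8 FPKM, stayed under 2-fold in IgG. In neither gene did the values of the groups overlap.

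Pik3r1 and Lcn2 are the other called members. Pik3r1, which encodes the p85 alpha regulatory subunit of phosphoinositide 3-kinase, had 3.40 and 10.2 FPKM with IgG and 2.84 and 10.1 with anti-EZH2. Lcn2, the iron-sequestering lipocalin 2 of the acute phase, was listed at 0 in both Sham libraries and had 1.87 FPKM in AngII 4 h IgG and 1.76 in AngII 4 h anti-EZH2, about 12 and 16 fragments. It passed the filter only through AngII 4 h, where it is high, so that its call adds little to the count of the list. Neither gene was also entered and called in the table of the whole series. The 7 neutrophil markers, of which 0 were entered, summed to 0.0406 and 0.771 FPKM with IgG and 0.107 and 3.44 with anti-EZH2.

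Several other members of the list were higher at AngII 4 h without passing 2-fold in both antibodies. Fkbp5, a co-chaperone that restrains the glucocorticoid receptor, had 1.82 and 3.49 FPKM with IgG and 1.99 and 8.03 with anti-EZH2, and the zinc finger repressor Zbtb16 had 2.07 and 7.73, then 3.87 and 6.93. The Krüppel-like factors had 5.36 and 9.51, then 4.70 and 8.18 (Klf9) and 2.77 and 5.87, then 1.94 and 3.46 (Klf15). In these 4 genes both AngII 4 h values were above both Sham values, as they were in 13 of the 20 genes, with 0 in the reverse order. FPKM without subtraction of the median leans toward that order. The share of all entered genes in it is not given here, so the count describes the list only. Tsc22d3 (GILZ), a well-known glucocorticoid target, was an exception with 13.1 and 18.7, then 10.1 and 12.9, as were Sgk1 with 4.60 and 3.64, then 3.83 and 6.14 and Errfi1 with 3.71 and 1.27, then 0.679 and 1.15. The other exceptions were Map3k6, Angptl4, Hif3a and the liver gene Tat, which was listed at 0. No measurement of corticosterone was used here.

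**Figure D2:**
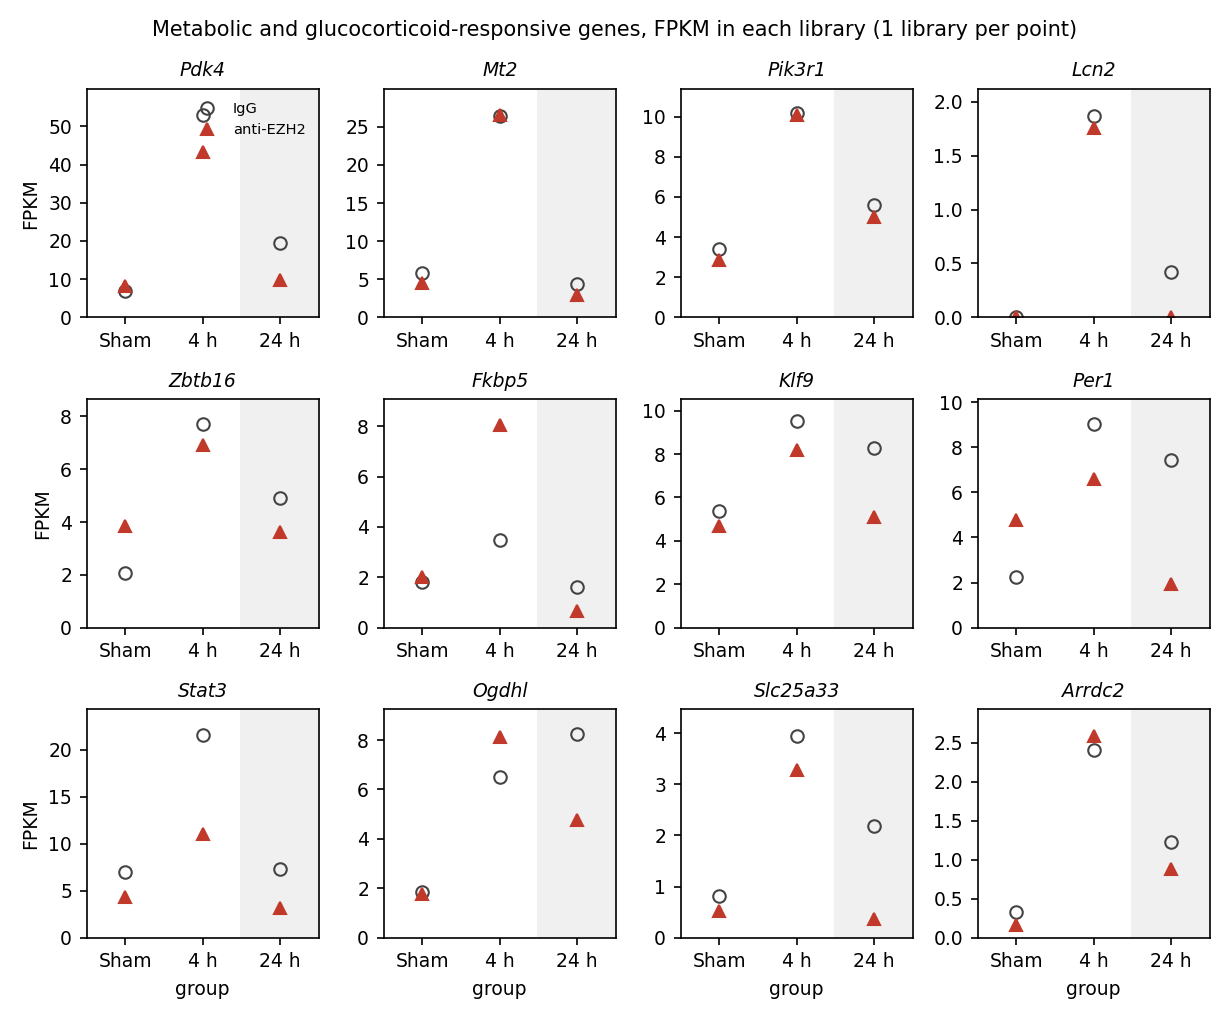
FPKM (y axis) of 12 metabolic and glucocorticoid-responsive genes in Sham, AngII 4 h and AngII 24 h (x axis), each point being 1 library (open circles IgG, filled triangles anti-EZH2) and the shaded 24 h group being set against the same Sham controls. In each panel both AngII 4 h values lie above both Sham values, and for Pdk4 (53.0 and 43.3 at 4 h), Mt2 (26.4 and 26.6), Pik3r1 and Lcn2 they lie above both 24 h values too. The panels were picked singly, so their common order is not a result. Members of the glucocorticoid list without that order, such as Tsc22d3, Sgk1 and Errfi1, are not shown. Per1, Stat3, Ogdhl, Slc25a33 and Arrdc2 are not in that list.

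The promoter of Mt2 is shown because it held several metal response element cores, unlike the windows of the other 3 called genes of the list. In the RefSeq sequence of GRCm38.p6, chr8:94172368-94172667 on the plus strand, the letters TGCACNC or TGCGCNC occur 4 times counting both strands, in capitals below. At least 1 such core was found in 25.7% of 32851 promoter windows of the same length, so a single match is common, and the match describes letters and not a bound site.
Mt2: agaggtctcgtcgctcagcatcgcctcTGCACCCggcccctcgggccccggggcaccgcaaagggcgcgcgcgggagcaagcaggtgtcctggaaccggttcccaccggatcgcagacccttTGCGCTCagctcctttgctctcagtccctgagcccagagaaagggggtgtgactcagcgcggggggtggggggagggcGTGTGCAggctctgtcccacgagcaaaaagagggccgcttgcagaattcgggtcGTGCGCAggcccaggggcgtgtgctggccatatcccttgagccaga
The hexamer AGAACA, to which the glucocorticoid receptor binds, was on neither strand of the windows of Mt2, Pdk4, Lcn2 or Pik3r1. It was found in 19% of all windows and in 17.9% of 28 windows of the glucocorticoid list. The palindromic glucocorticoid response element, with at most 2 of 12 bases off, was in 1.84% of all windows, in 3 of these 28 (10.7%), and in 0 of 83 windows of higher genes of at least 300 nt, of which 9.64% hold the hexamer.

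The next 3 higher genes encode mitochondrial proteins and are given singly, without a list or a test. The lists of energy metabolism below had 0 genes called. Ogdhl, a homologue of the E1 subunit of oxoglutarate dehydrogenase, had 1.85 and 6.50 FPKM with IgG and 1.78 and 8.14 with anti-EZH2. Slc25a33, a mitochondrial carrier of pyrimidine nucleotides, had 0.823 and 3.95, then 0.520 and 3.27. It passed the filter only through AngII 4 h, where it is high. Acadsb, the short/branched chain acyl-CoA dehydrogenase, picked after its values were seen, had 7.10 and 23.0, then 4.87 and 13.3. The groups did not overlap in any of these genes. Ppargc1a, a coactivator that drives mitochondrial biogenesis, missed 2-fold narrowly with 4.01 and 15.2, then 4.27 and 10.7, log2 ratios of 1.54 and 0.89. None of the 3 called genes was also entered and called in the table of the whole series.

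As lists, which do not hold Pdk4 or Acadsb, the genes of energy metabolism were shifted little, and upward. Of 31 fatty acid oxidation genes entered, 22 lay above the median gene in both antibodies and 3 below, with medians of 0.27 (IgG) and 0.51 (anti-EZH2). For 79 nuclear-encoded subunits of oxidative phosphorylation 58 lay above and 1 below, with medians of 0.18 and 0.38. None of these listed genes was called in either direction, nor was any of 23 listed genes of glycolysis and pyruvate metabolism (14 above, 2 below, medians 0.33 and 0.30) or of 13 mitochondrially encoded mRNAs (9 above, 0 below, medians 0.58 and 0.18). In the table of the whole series the medians were smaller, 0.08 and 0.39 for fatty acid oxidation, 0.07 and 0.22 for oxidative phosphorylation and 0.19 and 0.21 for glycolysis. For the mitochondrially encoded mRNAs they were 0.35 and 0.40 there, on 3 genes. Rescaling to the sum of nuclear protein-coding genes brought the anti-EZH2 median of these mRNAs to 0.01. Abundant mRNAs in general lay on this side: 663 protein-coding genes above 10 FPKM in all 4 libraries had medians of 0.11 and 0.21.

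Single members differed in the size of these shifts. The fatty acid binding protein Fabp3 had 309 and 442 FPKM with IgG and 247 and 414 with anti-EZH2, and the carnitine palmitoyltransferase Cpt1b had 40.7 and 59.9, then 33.5 and 64.7. Hexokinase 2 (Hk2; 7.57 and 14.2, then 4.82 and 11) and the ATP synthase subunit Atp5b (498 and 738, then 372 and 608) had higher values as well. In all 4 genes the AngII 4 h values lay above the Sham values without overlap, and none was called. Cpt1b and Hk2 are not among the 4 most abundant members of their lists. Other abundant members were closer to level, with log2 ratios of −0.05 and 0.04 for Lpl and −0.06 and 0.27 for Cox4i1.

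Sarcomere genes lay on the same side. Of 24 sarcomere and Z-disc genes, 19 were above the median gene in both antibodies, 1 below and 0 past 2-fold in both, with medians of 0.25 and 0.40, which were 0.05 and 0.16 in the table of the whole series. The 8 cardiomyocyte markers had medians of 0.26 and 0.35 (0.07 and 0.16 in that table), with 7 above and 1 below, titin (Ttn; 65.5 and 72.0, then 81.7 and 66.2). In bulk RNA, fewer cells of a type and less RNA per cell cannot be told apart, here or for the markers below.

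Further higher genes are given singly, all but Arrdc2 picked after their values were seen. Arrdc2, an arrestin domain protein, had 0.326 and 2.42 FPKM with IgG and 0.165 and 2.59 with anti-EZH2, and it passed the filter only through AngII 4 h. The kinase Pim3 had 3.65 and 9.96, then 2.37 and 7.68, and Tgm2, tissue transglutaminase, had 4.90 and 17.5, then 4.52 and 13.0. Methionine sulfoxide reductases repair oxidised methionine, and Msrb2 (4.50 and 19.3, then 2.84 and 13.9) and Msrb3 (3.49 and 9.94, then 2.50 and 10.1) were higher. All 4 genes of that family, a list made after values had been seen, lay above the median gene in both antibodies, with medians of 0.87 and 1.11. In the table of the whole series the medians were 0.59 and 0.73. None of Arrdc2, Pim3, Tgm2, Msrb2 and Msrb3 was also entered and called in that table.

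Ptges3l, a relative of the p23 co-chaperone, was listed at 0 in Sham IgG and had 4.65 FPKM in AngII 4 h IgG, against 1.34 and 7.79 with anti-EZH2. The gene 1700003M02Rik was listed at 0 in both Sham libraries and had 1.46 and 1.76 FPKM at AngII 4 h, through which alone it passed the filter. Insulin and FoxO signalling genes, also listed after values had been seen, had 1 of 14 higher (Pik3r1), 7 above the median gene in both antibodies, 2 below, and medians of 0.32 and 0.25.

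Several genes of haploid male germ cells were higher in both antibodies. The protamines Prm1 and Prm2 and the transition protein Tnp2 package DNA in the sperm head, and their genes lie in 1 cluster on chromosome 16. Prm3, which lies between Prm2 and Tnp2, was not entered, being listed at 0 in 3 of the 4 libraries and at 0.603 FPKM in AngII 4 h anti-EZH2. Prm2 had 0.552 and 14.5 FPKM with IgG and 0.838 and 16.5 with anti-EZH2. Prm1 was listed at 0 in both Sham libraries and had 14.3 FPKM in AngII 4 h IgG and 6.58 in AngII 4 h anti-EZH2. Tnp2 had 0.666 and 11 FPKM with IgG, and with anti-EZH2 it was listed at 0 in Sham and had 5.42 at AngII 4 h. Smcp, a protein of the sperm mitochondrial capsule, was listed at 0 in both Sham libraries and had 2.46 and 2.54 FPKM. These values rest on few fragments, about 36 and 62 for Prm2 and 9 and 13 for Smcp at AngII 4 h. At 24 h Prm2 had 16.3 and 4.99 FPKM. In the table of the whole series Prm2 had 0.182 and 3.01 FPKM with IgG and 0.306 and 4.25 with anti-EZH2. At 24 h it had 11.3 and 5.67 there. In that table the 24 h values of Prm1, Prm2 and Tnp2 lay above the AngII 4 h values in each antibody.

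A list of 28 spermatid genes, made after these genes had been seen, summed to 3.70 FPKM in Sham IgG and 69.2 in AngII 4 h IgG, and to 1.90 and 52.9 with anti-EZH2, with Prm2 as its most abundant gene. Of the 28, 23 and 25 were listed at 0 in the Sham libraries and 5 and 5 at AngII 4 h. In 19 both AngII 4 h values were above both Sham values, and in 0 below, a count given without the share of all genes in that order. The genes called were Prm1, Prm2, Tnp2, Smcp, Ldhc, Tcp11 and Spata20, and their share of the 9 genes entered says little, since 8 of the 9 were below 1 FPKM in both Sham libraries and passed the filter through their AngII 4 h values. The 2 entered genes not called were the transition protein Tnp1, which was listed at 0 in Sham IgG and had 7.30 FPKM in AngII 4 h IgG, against 0.747 and 1.07 with anti-EZH2, and Meig1, with 1.90 and 1.74 FPKM with IgG, listed at 0 in Sham anti-EZH2 and at 5.61 in AngII 4 h anti-EZH2. The sums at 24 h were 54.5 and 26.8. Of the called genes, Ldhc, Tcp11 and Spata20 were not also entered and called in the table of the whole series.

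Genes of meiotic germ cells and testis somatic cells were listed beside these. Of 12 genes of meiotic germ cells 0 were entered, Sycp3 and Stra8 were listed at 0 in all libraries, and the sums were 0.147 and 0.988 FPKM with IgG and 1.68 and 1.76 with anti-EZH2. The Sham anti-EZH2 sum came from Sycp1 alone. Listed at 0 were 11 of the 12 in Sham IgG and 8 in AngII 4 h IgG, and 11 and 6 with anti-EZH2. Of 11 genes of testis somatic cells 1 was entered, Insl3, with 0.549 and 3.60, then 0.521 and 1.30, while Amh, Fshr, Lhcgr and Hsd17b3 were listed at 0. Where the spermatid RNA came from was not tested.

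Among the 6 lower genes named for intervals that were apart were the atrial myosin light chains. Myl7 had 14.3 and 0.491 FPKM with IgG and 12.2 and 0.323 with anti-EZH2, and it was listed at 0 in both 24 h libraries. Myl4 had 9.50 and 0.562, then 6.57 and 0.555. Their log2 ratios, −3.51 and −3.58 for Myl7 and −2.90 and −2.55 for Myl4, had the largest smaller value of both antibodies among these 6 genes. Behind the Myl7 values stood about 24 and 27 fragments in Sham against 1 and 1 at AngII 4 h.

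Of 6 atrial markers 3 were entered, Myl7 and Myl4 only through their Sham values, so that the share called says little. The remaining gene entered, Nppa, had 20.2 and 10.6 FPKM with IgG and 10.8 and 10.2 with anti-EZH2. The list summed to 45.2 FPKM in Sham IgG and 12.1 in AngII 4 h IgG, and to 30.2 and 11.4 with anti-EZH2, with Nppa as the most abundant gene and sums of 5.94 and 5.63 at 24 h. The atrial genes Sln and Bmp10 were listed at 0 in all 6 libraries, and Dkk3 had 1.17 and 0.422, then 0.556 and 0.357. The share of atrial tissue in the samples was not tested.

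**Figure D3:**
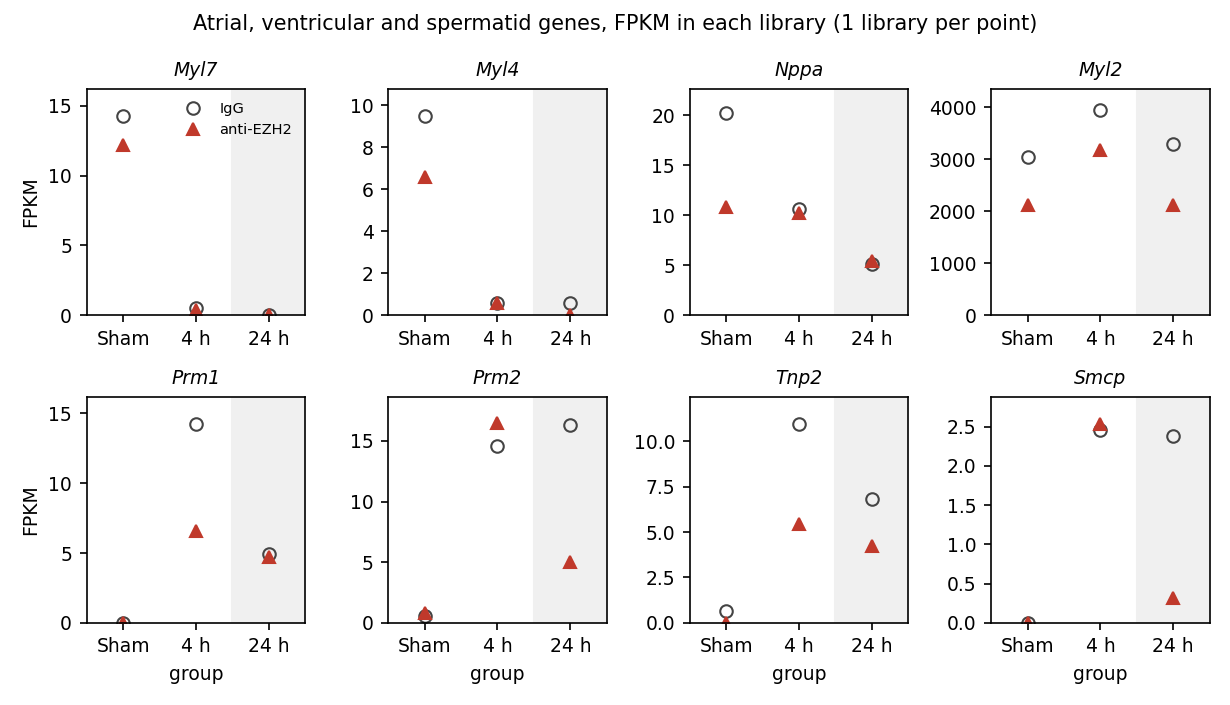
FPKM (y axis) of atrial (Myl7, Myl4, Nppa), ventricular (Myl2) and spermatid (Prm1, Prm2, Tnp2, Smcp) genes in Sham, AngII 4 h and AngII 24 h (x axis), each point being 1 library (open circles IgG, filled triangles anti-EZH2) with the 24 h group shaded. Myl7 and Myl4 lie between 6.57 and 14.3 FPKM in Sham and below 1 at AngII 4 h, and the spermatid genes lie below 1 in Sham and between 2.46 and 16.5 at AngII 4 h.

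Genes of the stroma lay lower. Of 26 extracellular matrix and fibroblast genes entered, 19 were below the median gene in both antibodies and 2 above. The medians were −0.52 in IgG (−0.25 in the table of the whole series) and −0.38 in anti-EZH2 (−0.12 without subtraction of the median). Of these genes 1 was called lower, the fibrillar collagen Col3a1 (20.6 and 7.37 FPKM with IgG and 24.5 and 12 with anti-EZH2). Col1a1 differed between antibodies, with 15.2 and 3.69, then 8.27 and 9.17, and Dcn stood close to level at 25.8 and 30.2, then 22.2 and 25.4. Genes of fibrosis such as Postn (3.56 and 1.83, then 2.32 and 1.93) and Tgfb1 (2.27 and 1.35, then 1.60 and 2.26) were not called.

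Markers of several other heart cells lay below the median gene. The 7 macrophage markers entered had medians of −0.58 and −0.58, with 5 below in both antibodies and 0 above, and the list summed to 57.8 and 35.8 FPKM with IgG and 42.6 and 29.8 with anti-EZH2, with Lyz2 as the most abundant. Fibroblast markers had medians of −0.69 and −0.13 (4 of 7 below, 0 above; −0.55 and −0.59 in the table of the whole series) and endothelial markers −0.49 and −0.20 (5 of 9 below, 0 above; −0.32 and −0.09 there), and both anti-EZH2 medians turned positive, 0.13 and 0.06, when the median gene was not subtracted. Erythroid genes had medians of −0.63 and −0.51 (4 of 5 below, 0 above; −0.36 and −0.82 in the table of the whole series), and summed to 920 and 625 FPKM with IgG and 724 and 588 with anti-EZH2, with the globin Hbb-bs as the most abundant. Smooth muscle and pericyte markers had 4 of 6 below and 1 above. How far the cell composition of the samples differed was not tested.

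Vasoactive and angiogenic genes showed no common direction, with 4 of 13 above the median gene in both antibodies and 6 below. Aplnr, the apelin receptor of endothelial cells, had 4.07 and 0.925 FPKM with IgG and 7.84 and 1.11 with anti-EZH2 and was the only gene called among these 13 (medians −0.36 and −0.15, the second 0.11 without subtraction of the median). Vegfa had lower values at AngII 4 h in each antibody (17.6 and 12.2, then 10.8 and 7.50), and Vegfb (31.7 and 44.8, then 26.0 and 40.8), the most abundant of the list, and Flt1 (3.37 and 5.27, then 4.16 and 6.87) had higher ones.

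Outside this list, Nrp2, a co-receptor for vascular endothelial growth factors and semaphorins, was lower with 2.52 and 0.712 FPKM with IgG and 1.59 and 0.470 with anti-EZH2. It passed the filter only through Sham, where it is high. Csf1, the growth factor of macrophages, had 6.25 and 2.40, then 6.34 and 1.46. The groups did not overlap in these genes. Neither Nrp2 nor Csf1 was also entered and called in the table of the whole series.

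Bst2 (tetherin), which interferon induces and which holds back budding virions, had 4.52 and 0.677 FPKM with IgG and 4.37 and 1.11 with anti-EZH2. Xaf1, also induced by interferon, had 2.32 and 0.424, then 3.73 and 0.572. These were the genes called among 9 entered of 20 interferon-stimulated genes, a list made after Bst2 had been seen, with medians of −0.87 and −0.71 and 5 genes below the median gene in both antibodies and 1 above. Xaf1 and Ifit3 (1.35 and 0.432, then 1.02 and 0.365) passed the filter only through Sham, where they are high, and the medians rest partly on them. In the table of the whole series the medians were closer to 0, −0.38 and −0.15. The gene above was Ifi27, with 1.36 and 5.23, then 1.12 and 1.92.

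Erdr1, which lies in the pseudoautosomal region of the sex chromosomes, had 8.93 and 1.76 FPKM with IgG and 5.63 and 0.332 with anti-EZH2. The table of the whole series gave it 0.893 and 0.0533 FPKM with IgG and 0.325 in Sham anti-EZH2, and it was listed at 0 there in AngII 4 h anti-EZH2.

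More chaperones lay below the median gene than above it. Of 26 chaperone and unfolded protein response genes, 15 were below the median gene in both antibodies and 3 above, with medians of −0.28 and −0.48. Without subtraction of the median these were −0.13 and −0.22. Those called were Hyou1, a large chaperone of the endoplasmic reticulum, with 6.55 and 2.80 FPKM with IgG and 3.97 and 1.84 with anti-EZH2, and Hspa1b, the heat-inducible Hsp70. Hspa1b had 1.21 FPKM in Sham IgG and was listed at 0 in AngII 4 h IgG, against 1.89 and 0.201 with anti-EZH2, and so it passed the filter only through Sham. Neither Hyou1 nor Hspa1b was also entered and called in the table of the whole series. Calreticulin (Calr; 38.9 and 21.3, then 30.3 and 23.5) and Hspa5 (BiP; 41.7 and 34.0, then 40.9 and 29.2) had lower values at AngII 4 h that stayed under 2-fold. Of the most abundant members, Hspa8 had 154 and 133, then 108 and 141 in the tables of single libraries but 1771 and 353, then 1723 and 1564, in the table of the whole series. Hsp90ab1 had 59.4 and 71.8, then 59.8 and 80.2, and 25.7 and 22.6, then 28.3 and 30.1, so no direction is given for either. Herpud1, which acts in the degradation of misfolded proteins, had higher values at AngII 4 h, 13.2 and 26.3, then 9.37 and 24.4.

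Redox genes showed no common direction. Of 20 entered 1 was lower (Gpx1) and 1 opposite (Gclm), with medians of 0.04 and 0.20. Gpx1, the cytosolic glutathione peroxidase, had 75.9 and 20.1 FPKM with IgG and 52.2 and 16.7 with anti-EZH2, but 6.80 and 3.45 with IgG and 5.61 and 2.40 with anti-EZH2 in the table of the whole series, so its level depends on the table more than on the group. Txnip, which binds thioredoxin and responds to glucose, had 17.4 and 32.7, then 12.3 and 28.8, and was not called.

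The value of Selt depended on the table as well. This selenoprotein had 12.4 and 433 FPKM with IgG and 11.5 and 124 with anti-EZH2 in the tables of single libraries and 4.69 and 4.23, then 4.04 and 3.85, in the table of the whole series. Of 16 selenoprotein genes entered, a list made after values had been seen, 2 were higher (Selt and Sep15), 2 lower (Gpx1 and Txnrd2) and 1 opposite (Sepp1). The medians were −0.37 and 0.31, and −0.03 and −0.01 in the table of the whole series.

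The lists of immediate early and of inflammatory genes, which do not hold Lcn2 or Csf1, had 0 genes called. Of 35 immediate early genes 17 were entered and 0 called, with medians of −0.09 and −0.22 that became 0.06 and 0.04 when the median gene was not subtracted. Fos was listed at 0 in both Sham libraries and in AngII 4 h IgG and had 0.595 FPKM in AngII 4 h anti-EZH2. Of 40 acute inflammatory and cytokine genes 8 were entered and 0 called (medians 0.23 and 0.45, and 0.08 and 0.17 in the table of the whole series), and Il6, Il1b and Tnf were listed at 0 in all 6 libraries. At this depth transcripts of low abundance can be missed.

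Stat3, which transmits signals of interleukin 6, came nearest to a call in the inflammatory list. It had 7.00 and 21.6 FPKM with IgG and 4.34 and 11.1 with anti-EZH2, log2 ratios of 1.34 and 0.91, without overlap of the groups. Cebpd, a transcription factor of the acute phase, had 1.42 and 4.47, then 1.97 and 4.48, also without overlap.

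Hypertrophy markers were not called either. Of 13 entered, 4 lay above the median gene in both antibodies and 6 below, with medians of −0.09 and 0.20. The first became 0.07 without subtraction of the median, and in the table of the whole series the medians were −0.33 and −0.30. Nppb had 21.2 and 17.4 FPKM with IgG and 13.3 and 18.8 with anti-EZH2, values that overlap between the groups. Skeletal actin Acta1, with 38.1 and 54.4, then 24.3 and 54.8, lay higher at AngII 4 h without overlap. Myh7 had 31.7 and 43.5, then 30.1 and 44.1 in the tables of single libraries but 0.883 and 0.555, then 2.62 and 0.646, in the table of the whole series, where the direction turns in both antibodies.

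The renin-angiotensin-aldosterone list had 8 of 18 genes entered and 0 called, with the AT1 receptor gene Agtr1a at 1.16 and 2.67 FPKM with IgG and 1.41 and 2.09 with anti-EZH2. The circadian list had 14 entered, 0 called and medians of 0.14 and 0.14. Per1, which both the clock and glucocorticoids control, had 2.24 and 9.03, then 4.77 and 6.60.

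The remaining lists had 0 genes called. Their medians in IgG and anti-EZH2 were 0.02 and 0.24 for 26 calcium handling and ion channel genes, 0.25 and −0.04 for 17 adrenergic and G protein feedback genes, −0.37 and −0.03 for 13 calcineurin, NFAT and MEF2 genes, and −0.10 and 0.00 for 79 cytosolic ribosomal proteins. For 11 nuclear and structured ncRNAs they were −0.45 and −0.36, with 8 below the median gene in both antibodies and 2 above. Ribosome biogenesis genes (18 entered) had −0.27 and 0.01, and 8 cell cycle genes −0.48 and 0.29. Ccnd2 of the latter had 179 and 9.88 FPKM with IgG and 10.7 and 7.23 with anti-EZH2 in the tables of single libraries, and 78.5 and 3.01, then 37.3 and 2.75, in the table of the whole series, so that the difference is large in IgG in both tables and in anti-EZH2 in the latter. The cell cycle inhibitor Cdkn1a had 2.47 and 4.64, then 1.92 and 6.22.

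Polycomb genes showed no common direction. Of 10 Polycomb and H3K27 demethylase genes 8 were entered and 0 called, with medians of −0.27 and 0.04. Ezh2 itself had 1.67 and 1.05 FPKM with IgG and 0.266 and 1.19 with anti-EZH2, and Suz12 had 4.81 and 3.98, then 1.12 and 2.49, in both of which the groups overlap. Eed, with 0.372 and 2.21, then 0.694 and 0.987, was not entered.

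**Figure D4:**
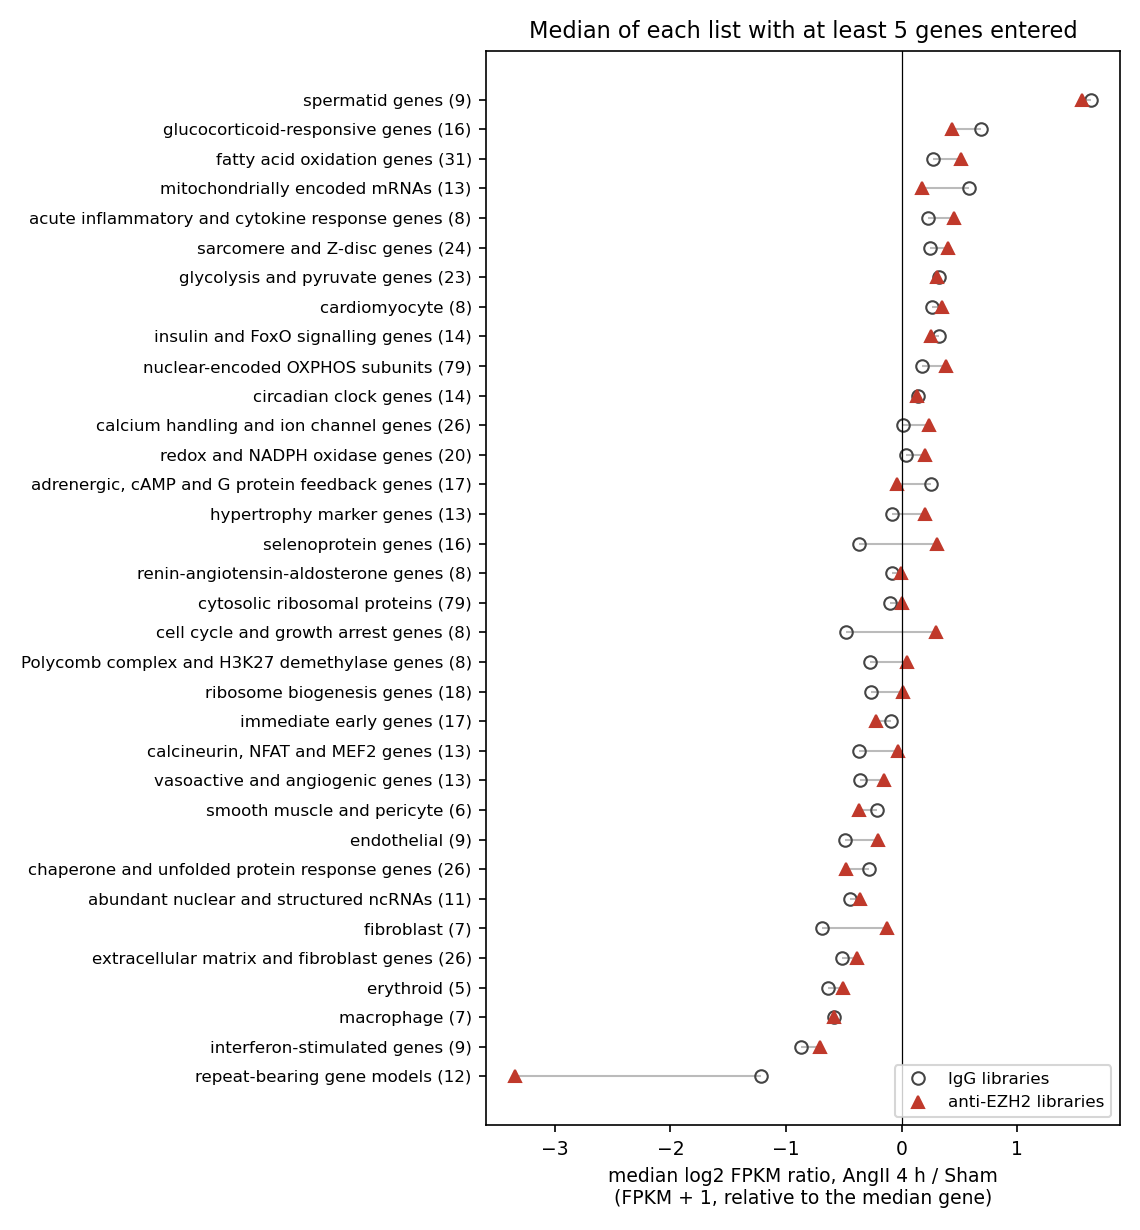
Median log2 ratio of AngII 4 h to Sham (x axis, FPKM + 1, relative to the median gene) of each gene list with at least 5 genes entered (y axis, number entered in brackets), with open circles for IgG and filled triangles for anti-EZH2 libraries. Glucocorticoid-responsive genes (0.69 and 0.43) lie above 0 and macrophage markers (−0.58 and −0.58) below, while the outermost medians, of spermatid genes and repeat-bearing gene models, are not comparable with the others, because many of their genes passed the filter only through the group in which they are high.

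Short and repeated RNAs account for many of the remaining calls. Of 68 ribosomal RNA genes 50 were lower and 0 higher, 40 of them among 53 copies of 5S ribosomal RNA, whose shared sequence leaves the value of a single copy uncertain. Small nucleolar RNAs had 25 higher, 37 lower and 20 opposite of 193, and small nuclear RNAs 14, 5 and 17 of 218. MicroRNA genes had 4 higher, 18 lower and 13 opposite of 97. Among all entered genes 1.56% were higher, 2.64% lower and 1.90% opposite. None of the higher small nucleolar RNAs was also entered and called higher in the table of the whole series. Of the lower ribosomal RNA genes only n-R5s193 was also entered and called lower there. The RNA of RNase MRP, Rmrp, had 1508 and 740 FPKM with IgG and 1084 and 689 with anti-EZH2, without overlap of the groups.

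Gene models made largely of repeats, a list of 13 made after values had been seen, had both AngII 4 h values below both Sham values in all 13. The share of all genes in that order is not given here. The models share sequence, so they are not 13 separate observations. They summed to 152 and 55.3 FPKM with IgG and 631 and 40.8 with anti-EZH2, and 7 were called lower. Gm10800, the most abundant, had 69.3 and 22.0 FPKM with IgG and 291 and 20.2 with anti-EZH2. Of the 25-mers of each model 44.5% to 95.3% occur in another of them, so reads cannot be assigned to single models with certainty.

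Opposite directions reached abundant genes. Sepp1, the plasma selenoprotein P, had 647 and 189 FPKM with IgG and 252 and 611 with anti-EZH2, but 24.9 and 13.9, then 13.9 and 15.8, in the table of the whole series, where it was not past 2-fold in both antibodies. The RNA gene Gm25776 had 231 and 1184, then 833 and 348. Snord47 was listed at 0 in Sham IgG and had 223 FPKM in AngII 4 h IgG, against 1795 and 587 with anti-EZH2. In such genes the groups overlap, and no direction is given for AngII.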

How the data were processed

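RIP-seq libraries of left ventricles (2 mice a group, 1 library for each group and antibody) were used as deposited. Reads had been mapped to mm10 with TopHat2, and the authors deposited FPKM, with an interval for each value, in 1 table for each library, and a further FPKM table that covers the series. The program that made them is not given in the sources used here. The deposited intervals hold the FPKM itself in 94.7%, 93.8%, 91.5% and 91.5% of table lines above 1 FPKM (Sham IgG, AngII 4 h IgG, Sham anti-EZH2, AngII 4 h anti-EZH2), so they serve as description. A value listed at 0 can have an interval of 0 to 0, as Prm1 has in Sham, and any interval above 0 is then apart from it. The tables have 46165 lines for 46072 gene identifiers. Lines of a gene were summed, and values below 0.001 were set to 0. Gene types, lengths and coordinates came from GENCODE M21 (GRCm38).

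Genes with FPKM above 1 in at least 2 of the 4 libraries entered. log2((AngII 4 h + 1)/(Sham + 1)) was taken within each antibody minus its median over entered genes, and 2-fold in both antibodies was called. With 1 pool a group no test was made. Fragments were inferred from FPKM and length with an assumed fragment of 200 nt, and 61.8% to 64.7% of low values were whole numbers within 0.1. Named were the 12 highest and 12 lowest genes by the smaller of both ratios among protein-coding and lncRNA genes of at least 300 nt with intervals apart in both antibodies (12 of 17 higher, 6 of 6 lower), called members and the 4 most abundant members of 23 gene lists, Ezh2, Eed and Suz12, and the 5 most abundant opposite genes. Not all of these are printed. Other genes (such as Acadsb, Pim3, Tgm2, Csf1, Msrb2, Msrb3, Ppargc1a and Selt) and 8 further lists were chosen after their values were seen. Members and lists were chosen with earlier results of these data known. Promoter windows of 300 bases came from RefSeq.

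Alternatives were other pseudocounts, filters, scalings, folds, gene classes, each antibody alone, intervals apart and the series table. The work ran on numpy 2.4.6 and scipy 1.17.1, with tables read by pandas 2.3.3 and figures drawn by matplotlib 3.10.9, under Python 3.11.15. The procedure was run on simulated data as a check of the code. Those data had 1 uniform spread for all genes and no gene-specific difference between antibodies. They therefore do not measure how often genes are falsely called in the data used here.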

Additional observations from a re-analysis of the deposited data

How the results depend on the processing

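Counts are given as higher, lower and opposite, against 135, 229 and 165. With 0.1 FPKM added in place of 1 they were 278, 417 and 454, and with 0.5 FPKM 183, 321 and 278. Genes above 1 FPKM in all 4 libraries (5534) gave 41, 124 and 43, genes above 5 FPKM in at least 2 (3058) gave 62, 157 and 86, and all 21225 genes above 0 in at least 1 library gave 203, 165 and 167, so that the larger number turns to the higher genes. Without subtraction of the median they were 221, 158 and 170, which also turns it. At 1.5-fold the counts were 384, 549 and 605, and at 4-fold 29, 23 and 35. With intervals apart in both antibodies they were 18, 8 and 0. This setting leans toward higher genes, because a value listed at 0 can have an interval of 0 to 0. Of the entered genes 289 were listed at 0 in Sham IgG and 179 in AngII 4 h IgG, and 131 and 89 with anti-EZH2. The series table (4489 genes) gave 30, 80 and 50. Fewer genes were tested among protein-coding genes (70, 105 and 85 of 7081) and genes of at least 300 nt (78, 115 and 98 of 7908), each with its own median. IgG alone gave 741 higher and 811 lower, and anti-EZH2 alone 538 and 854, where 1 antibody sufficed. Chosen after seeing the data, calls in both forms of table (4391 genes) numbered 23, 47 and 30, and genes of at least 300 nt with a mean FPKM above 5 (2231) gave 27, 21 and 23. Apart from settings that test fewer genes, the cause was not tested. Rescaling to the sum of nuclear protein-coding genes gave 135, 237 and 171.

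Ratios were taken within each antibody, but no paired test was possible because each group was 1 pool of hearts with 1 library for each antibody. The mean log2 ratio changed sign in 4 of 117 named genes after rescaling, in 10 without subtraction of the median and in 14 of 110 in the series table. Of the list medians 1 of 39, 8 of 39 and 2 of 38 did. Depth limits genes near 1 FPKM, which rest on about 7.77 to 14.4 fragments in a transcript of 2000 nt.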
